A study of Homo sapiens with 6 samples.

Results

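The cytosolic ribosomal protein genes encode the protein parts of the ribosome that translates nuclear-encoded mRNAs. They were taken from the count table by symbol, as RPL or RPS followed by a number and at most 1 further letter (A, X or L), together with RPLP0, RPLP1, RPLP2 and RPSA. This gave 81 members among the 57905 genes of the table, 32 of the small subunit and 49 of the large subunit. RPS27L, a known p53 target that resembles RPS27, was set apart, and RPS10L was left out because the annotation holds it as a pseudogene. RNA was sequenced from HCT116 cells, an established human colorectal carcinoma line with wild-type p53, after 1 and 10 h with 10 µM Nutlin-3a (Nut 1h and Nut 10h), a compound that keeps MDM2 from binding p53. The control cells (Nut 0h) received only DMSO, the solvent of the drug, and with 2 biological replicates for each condition there were 6 libraries in all. All conditions are this single cell line, the vehicle cells stand for 0 h alone, and the labels name no further allele or agent.

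A ribosome holds 1 copy of nearly every ribosomal protein, so cells make these proteins in matched amounts and from very abundant mRNAs. Most of these mRNAs begin with a run of pyrimidines, the 5′ terminal oligopyrimidine (TOP) tract, through which growth signalling controls their translation as a group. When ribosome assembly fails, free RPL5 and RPL11 bind MDM2 with the 5S rRNA and release p53, and several other ribosomal proteins are known to bind MDM2 as well.

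To see the element that the members have in common, the start sites were read from RefSeq promoters (GRCh38.p14), in which 63 of the 81 members and RPS27L were found. Of the 63, 42 (66.7%) had a C at the annotated start that opened a run of at least 5 pyrimidines (C or T, read on the strand of the gene), against 4.07% of all 35116 promoters in that table. The run was found at 22 of the 34 members downregulated after 1 h, at 7 of the 10 upregulated members and at 13 of the 18 that did not pass the test. The windows below run from 10 bases before the start to 20 bases from it onward, with the unbroken pyrimidines that open the transcript in capitals. They are those of the members with the 4 lowest and 4 highest fold changes after 1 h, followed by RPS27 and RPS27L, to set starts of genes that moved in opposite directions side by side.
RPL26: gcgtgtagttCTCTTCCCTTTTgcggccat
RPL28: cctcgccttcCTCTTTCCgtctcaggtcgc
RPS15: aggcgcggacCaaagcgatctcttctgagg
RPL18: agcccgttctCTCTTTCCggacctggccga
RPL36A: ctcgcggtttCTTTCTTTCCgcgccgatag
RPL39: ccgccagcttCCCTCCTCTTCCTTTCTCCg
RPL21: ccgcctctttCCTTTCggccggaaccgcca
RPS27A: agtgacacacaagacccagactcttcccta
RPS27: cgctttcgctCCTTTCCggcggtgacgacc
RPS27L: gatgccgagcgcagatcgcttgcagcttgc

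The window of RPL26 is chr17:8383174-8383203 on the minus strand and that of RPL39 is chrX:119791611-119791640 on the minus strand, both in GRCh38.p14. The run of pyrimidines was 12 bases long in RPL26, which had the largest decrease after 1 h, and 19 bases long in RPL39, which had the next to largest increase. RPS27 opened with a run of 7 bases, whereas RPS27L opened with a G (chr15:63157458-63157487, minus strand). The annotated starts of RPS15 and RPS27A held no such run, which says only that these letters do not begin at that base.

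The libraries held 26068076 to 35473485 gene counts. The epithelial markers EPCAM, KRT8, KRT18, KRT19, CDH1 and CDX2 were present in every library, with 412 counts or more, and of 7 matched markers of other cell types 6 had 25 counts or fewer, while the collagen gene COL1A1 had 621 to 1484. After 1 h 4 of the 6 epithelial markers were downregulated and 2 upregulated (median -0.54), COL1A1 had -0.78 (adjusted p = 1.13e-05), and their part in the results was not tested. As a check of the treatment, MDM2 had log2 fold changes of 2.19 after 1 h and 3.75 after 10 h. The cell cycle inhibitor gene CDKN1A had 0.05 (adjusted p = 0.704, edgeR) and 3.84, and its 1 h value was 0.64 and was called (adjusted p = 3.58e-06) once the trend of each library on GC content had been removed, which is called the GC-content offset here. A coding-sequence offset, chosen after seeing the data, uses the GC content of the coding sequence alone in place of that of the whole transcript.

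The ribosomal protein genes took up a smaller share of the gene counts after 1 h than in either other condition. The 81 members held 6.85% and 6.45% of the counts in the Nut 0h replicates, 4.96% and 5.25% after 1 h, and 7.62% and 6.88% after 10 h. The Nut 1h libraries lay below all others, and the Nut 10h libraries lay above both Nut 0h libraries, by as little as 6.88% against 6.85%. As a share of the TMM-scaled library size, Nut 10h replicate 2 (6.78%) was below Nut 0h replicate 1 (7.11%), so the separation of Nut 10h from Nut 0h depended on the scaling. The mean share was 6.65% ± 0.283 in the controls, 5.11% ± 0.205 after 1 h and 7.25% ± 0.523 after 10 h (SD, n = 2 libraries), so that Nut 1h had 0.768 times the share of Nut 0h. An exact two-sided permutation test of 2 against 2 libraries cannot go below p = 0.33, and each of the 3 comparisons gave that value. Counting error alone gave 95% Wilson intervals no wider than 0.0176 percentage points, far less than the replicates differed.

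Both subunits took part. The small subunit genes held 2.53% and 2.38% of counts in the controls, 1.81% and 1.92% after 1 h, and 2.82% and 2.57% after 10 h. The large subunit genes held 4.32% and 4.06%, then 3.15% and 3.32%, and then 4.8% and 4.31%. The mitochondrial genome held 4.99% and 6.18% of counts in the controls, 8.44% and 8.15% after 1 h, and 6.45% and 7.06% after 10 h, so its share was above both controls in all 4 treated libraries. With the mitochondrial counts left out of the total, the mean share of the ribosomal protein genes was still 5.56% after 1 h against 7.04% in the controls. In bulk RNA, fewer cells of a kind and less RNA per cell cannot be told apart, and a share of counts does not give the amount of RNA in a cell.

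**Figure D1:**
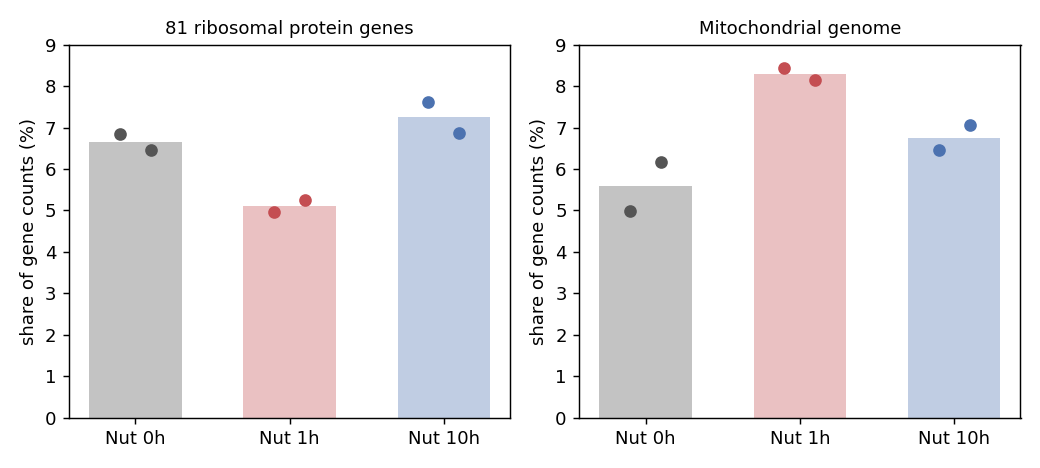
Share of all gene counts (%) that fell on the 81 cytosolic ribosomal protein genes (left) and on the mitochondrial genome (right) in the 3 conditions. Points are libraries and bars are means of 2. The ribosomal protein genes held 4.96% and 5.25% after 1 h and 6.45% or more in the other 4 libraries, while the mitochondrial genome held its highest shares, 8.44% and 8.15%, after 1 h.

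To ask which genes made up this change, all genes were tested with edgeR's quasi-likelihood test, and an adjusted p-value of at most 0.05 was called a change. Of the 81 members, 77 had enough counts to be tested. After 1 h, 43 of the 77 were downregulated and 13 were upregulated against Nut 0h, while 21 did not pass. This is 55.8% and 16.9% of the members, where 32.3% of all 16565 tested genes were downregulated and 34.5% upregulated (66.9% in either direction). The median log2 fold change of the members was -0.34 (quartiles -0.74 and 0.11), and that of all tested genes was 0.05. The small subunit had 16 downregulated and 4 upregulated genes of 30 tested (median -0.35), and the large subunit had 27 and 9 of 47 (median -0.34). The members therefore did not move as 1 group, since their log2 fold changes ran from -2.02 to 1.53 with a median standard error (SE) of 0.101.

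After 10 h few members passed the test against the controls. Of the 77, 3 were upregulated and 0 downregulated, that is 3.90%, where 29.0% of all tested genes were called (14.1% upregulated and 14.9% downregulated). At an unadjusted p under 0.05, 11 were higher and 0 lower, and DESeq2 called 3 higher and 0 lower. The count of upregulated members depended on the fit, with 0 to 12 under the alternatives other than a crossed replicate block, which was chosen after seeing the data and called 27 higher and 3 lower. The median log2 fold change was 0.10 and that of all tested genes was 0.00017. Among the 76 members with at least 100 counts on average in the controls, the values lay between -0.24 and 0.40, a far narrower range than after 1 h although the median SE was the same 0.101. Tested directly, Nut 10h was above Nut 1h in 46 members and below it in 10, against 34.2% and 33.7% of all tested genes (67.9% in either direction).

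**Figure D2:**
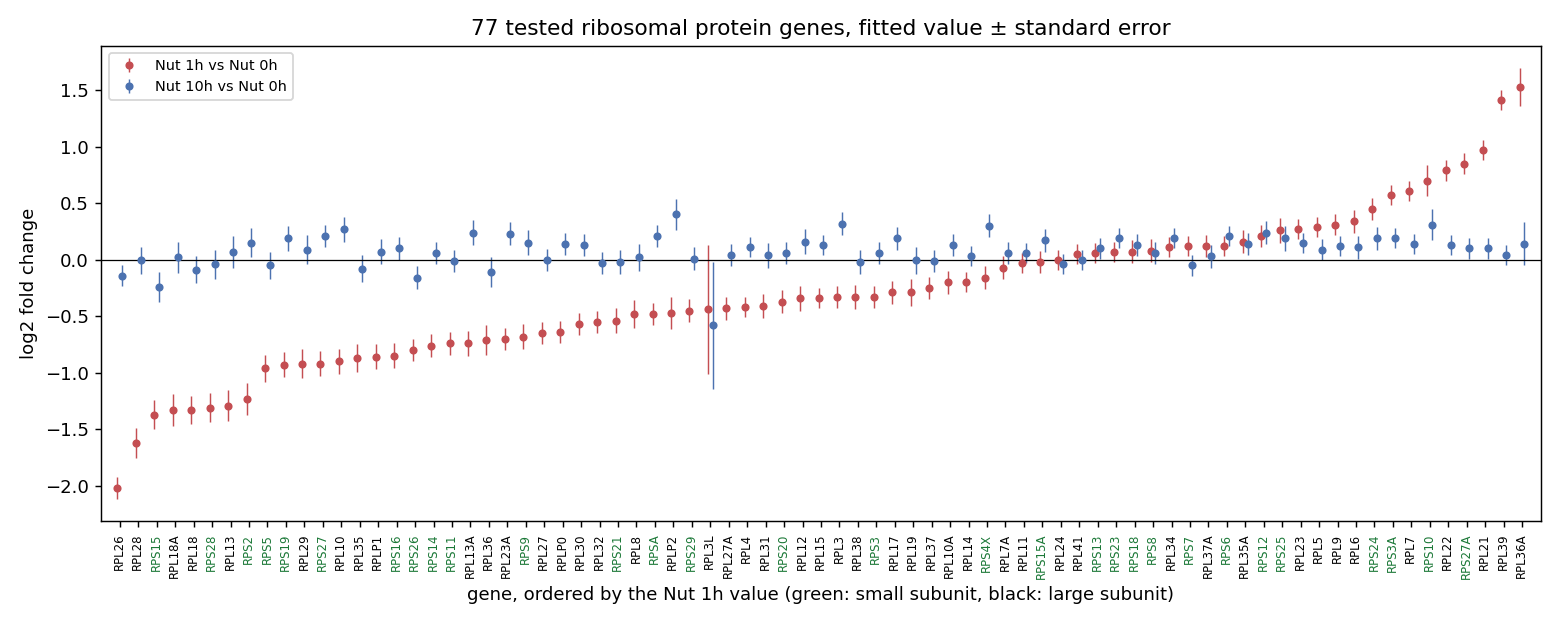
Log2 fold change against Nut 0h after 1 h (red) and after 10 h (blue) of the 77 tested ribosomal protein genes, in the order of the Nut 1h value. Bars are standard errors of the fit, and gene names are green for the small and black for the large subunit. The Nut 1h values run from -2.02 (RPL26) to 1.53 (RPL36A), whereas the Nut 10h values stay between -0.24 and 0.40 apart from RPL3L, which had 14 counts or fewer.

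The largest decreases after 1 h were in RPL26, RPL28, RPS15 and RPL18. RPL26, a large subunit protein near the exit of the peptide tunnel, lies on chromosome 17 (8280834 to 8286531, minus strand, GRCh37). It had 4913 and 4330 TMM-normalized counts in the controls, 1111 and 1173 after 1 h, and 4302 and 4064 after 10 h. Both Nut 1h libraries were far below the other 4, and both Nut 10h libraries lay just below both Nut 0h libraries. Its log2 fold change was -2.02 after 1 h (SE 0.10, adjusted p = 1.18e-08 from edgeR, as for all adjusted p-values here), a 4.05-fold decrease, and -0.14 after 10 h (adjusted p = 0.285). The RPL26 row shares exon bases on the same strand with RP11-849F2.7, which itself had at most 5 counts, so reads common to both may be missing from its counts.

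RPL28, a large subunit protein on chromosome 19 (55897300 to 55914618), had 45266 and 38870 normalized counts in the controls, 12968 and 14491 after 1 h, and 46970 and 36976 after 10 h. The Nut 1h libraries did not overlap with the others, and the Nut 0h and Nut 10h libraries interleaved. The log2 fold change was -1.62 after 1 h (SE 0.13, adjusted p = 2.33e-07) and -0.0033 after 10 h (adjusted p = 0.991). RPS15, a small subunit protein near the decoding site, on chromosome 19 (1438357 to 1440494), had 28823 and 24228, then 9692 and 10786, and then 25458 and 19363 normalized counts. Its log2 fold change was -1.37 after 1 h (SE 0.13, adjusted p = 9.83e-07) and -0.24 after 10 h (adjusted p = 0.177), the lowest Nut 10h value among the members with at least 100 counts. Without Nut 10h replicate 1 this value was -0.45 and was called (adjusted p = 0.0118). RPL18, a large subunit protein on the same chromosome, had 40642 and 33453, then 14246 and 15260, and then 38315 and 31141 normalized counts, a 2.51-fold decrease after 1 h (adjusted p = 7.24e-07).

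At the other end, RPL36A, RPL39, RPL21 and RPS27A had the largest increases after 1 h. RPL39, a very small protein that lines the exit tunnel, lies on the X chromosome (118920467 to 118925593, minus strand). It had 3104 and 3286 normalized counts in the controls, 8236 and 8748 after 1 h, and 3353 and 3210 after 10 h. Both Nut 1h libraries stood far above the other 4, whose ranges overlapped. The log2 fold change was 1.41 after 1 h (SE 0.09, adjusted p = 8.41e-08), a 2.66-fold increase, and 0.04 after 10 h (adjusted p = 0.791). RPL39 also shares exon bases with the small nucleolar RNA gene SNORA69, whose reads cannot be told apart from its own in these counts.

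RPL36A had the highest value but few counts, with 92 and 129 normalized counts in the controls, 346 and 288 after 1 h, and 118 and 125 after 10 h. The Nut 1h libraries did not overlap with the rest, with a log2 fold change of 1.53 (SE 0.17, adjusted p = 3.97e-06). The gene shares its exons with the readthrough row RPL36A-HNRNPH2, which had 0 counts in all libraries, so that reads common to both may be missing. RPL21, a large subunit protein on chromosome 13 (27825499 to 27830828), had 10918 and 10907, then 20880 and 22015, and then 11633 and 11691 normalized counts, a 1.97-fold increase after 1 h (adjusted p = 7.14e-07). RPS27A, which encodes ubiquitin fused to a small subunit protein, had 11969 and 12168, then 21162 and 22484, and then 12994 and 12849, a 1.81-fold increase (adjusted p = 2.04e-06). After 10 h both had a log2 fold change of 0.10 and were not called (adjusted p = 0.458 and 0.448).

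**Figure D3:**
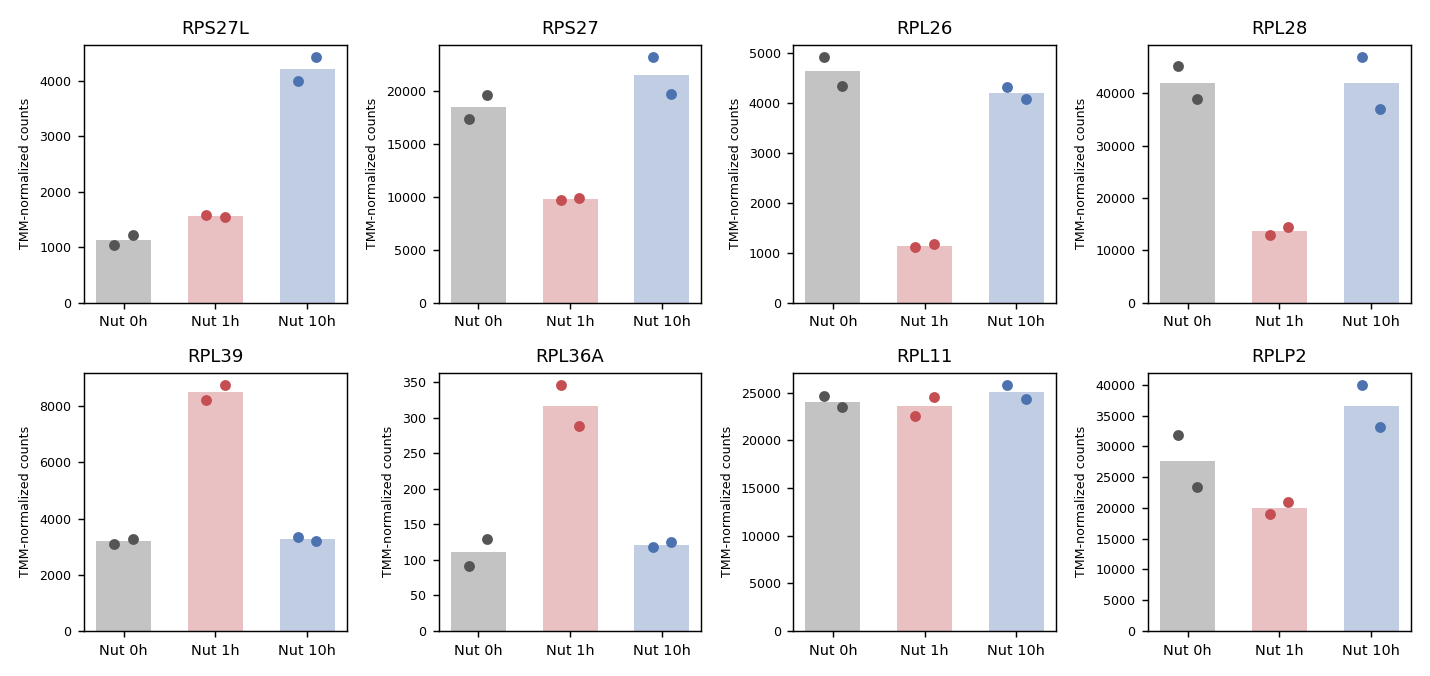
TMM-normalized counts of RPS27L, RPS27, RPL26, RPL28, RPL39, RPL36A, RPL11 and RPLP2 in the 3 conditions. Points are libraries, bars are means of 2, and each panel has its own axis from 0. RPL26, RPL28 and RPS27 have their lowest values after 1 h and RPL39 and RPL36A their highest, whereas RPS27L has its highest, 4002 and 4432, after 10 h.

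RPS27L and RPS27 encode closely related small subunit proteins, and both are known to bind MDM2. RPS27L lies on chromosome 15 (63418071 to 63450220, minus strand) and had 1043 and 1226 normalized counts in the controls, 1574 and 1552 after 1 h, and 4002 and 4432 after 10 h. The 3 conditions did not overlap and rose with time. Its log2 fold change was 1.89 after 10 h (SE 0.11, adjusted p = 1.14e-08), a 3.72-fold increase, and it was also higher after 10 h than after 1 h, by 1.43 (adjusted p = 4.47e-08). The Nut 1h value of 0.46 (adjusted p = 0.00139) did not hold when the libraries were corrected for GC content, where it was -0.10 (adjusted p = 0.261).

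RPS27, on chromosome 1 (153963238 to 153964631), had 17384 and 19674 normalized counts in the controls, 9697 and 9916 after 1 h, and 23243 and 19744 after 10 h. It was downregulated after 1 h, with a log2 fold change of -0.92 (SE 0.11, adjusted p = 4.23e-06), and had 0.21 after 10 h (adjusted p = 0.143). Without Nut 10h replicate 2 the RPS27 value after 10 h was 0.34. Counts of RPS27L were 6.0% and 6.23% of those of RPS27 in the controls, 16.2% and 15.6% after 1 h, and 17.2% and 22.4% after 10 h. The ratio was higher than in the controls in all 4 treated libraries. No member changed after 10 h by as much as RPS27L, since the highest log2 fold change among the 77 was 0.40.

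Of 14 tested ribosomal proteins known to bind MDM2, RPS27L and RPS27 included, 7 were downregulated and 4 upregulated after 1 h (median -0.14), where 32.3% of all tested genes were downregulated and 34.5% upregulated, and RPS27L alone was called after 10 h, where 29.0% of all tested genes were called. RPL11 was not called in either comparison, with 24618 and 23538 normalized counts in the controls, 22585 and 24574 after 1 h, and 25794 and 24326 after 10 h. The conditions overlapped, with log2 fold changes of -0.03 (SE 0.09, adjusted p = 0.789) and 0.06 (adjusted p = 0.688). RPL5, its partner in the 5S particle, had 26209 and 25886, then 31191 and 32460, and then 27540 and 27874 normalized counts. It was called after 1 h with 0.29 (adjusted p = 0.0108), but the value was -0.05 with the GC-content offset (adjusted p = 0.545), and it was called lower with the coding-sequence offset (-0.27, adjusted p = 0.00598). Without the second replicate of Nut 0h or of Nut 1h it kept a log2 fold change of 0.28 or 0.26 but missed the threshold (adjusted p = 0.0595 and 0.0881). RPL23, a further MDM2-binding protein, had 15420 and 14669, then 17507 and 18693, and then 17393 and 15939, with 0.27 after 1 h (adjusted p = 0.0214) and -0.17 under the GC-content offset (adjusted p = 0.106). Its call was also lost, at log2 fold changes of 0.22 to 0.31, without Nut 0h replicate 2 (adjusted p = 0.119), Nut 1h replicate 1 (adjusted p = 0.0540) or Nut 1h replicate 2 (adjusted p = 0.162). RPS26, a protein at the mRNA exit that is also among the 14, had 17777 and 16918, then 9706 and 10231, and then 16729 and 14364 normalized counts, and fell after 1 h (-0.80, adjusted p = 8.59e-06).

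The members were next described by their place in the ribosome, with further members named as examples after their values were seen. The stalk of the large subunit, which recruits the translation factors that use GTP, is made of RPLP0, RPLP1 and RPLP2 and is anchored beside RPL12. All 4 were downregulated after 1 h, by log2 fold changes of -0.34 to -0.86, and all 4 were higher after 10 h than after 1 h. Of all tested genes, 32.3% were downregulated after 1 h and 34.2% were higher after 10 h than after 1 h. With the GC-content offset only RPLP0 (-0.39) and RPLP1 (-1.03) were called after 1 h, while RPL12 had -0.14 (adjusted p = 0.175) and RPLP2 had 0.14 (adjusted p = 0.260). The coding-sequence offset kept the calls of RPLP0 (-0.50), RPLP1 (-0.65) and RPL12 (-0.38, adjusted p = 0.00248), and gave RPLP2 -0.15 (adjusted p = 0.261). RPLP0, the stalk base, had 120386 and 114833 normalized counts in the controls, 71778 and 79331 after 1 h, and 137439 and 121536 after 10 h. Its log2 fold change was -0.64 after 1 h (adjusted p = 8.48e-05) and 0.14 after 10 h (adjusted p = 0.343). RPLP1 had 54731 and 53522, then 28178 and 31627, and then 62348 and 51366, with -0.86 after 1 h (adjusted p = 1.15e-05).

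RPLP2 was 1 of the 3 members upregulated after 10 h, with 31917 and 23402 normalized counts in the controls, 19037 and 20994 after 1 h, and 39980 and 33196 after 10 h. Its Nut 0h replicates differed by more than those of the other stalk genes. The log2 fold change after 10 h was 0.40 (SE 0.14, adjusted p = 0.0386), and it was 0.20 without Nut 0h replicate 2 (adjusted p = 0.307). The others were RPL3, which lies at the peptidyl transferase centre, with 0.32 (SE 0.10, adjusted p = 0.0302), and RPS4X, a small subunit protein encoded on the X chromosome, with 0.30 (SE 0.10, adjusted p = 0.0316). RPL3 had 74546 and 69009 normalized counts in the controls and 94978 and 83809 after 10 h, and RPS4X had 34012 and 37177 against 44348 and 43048, without overlap in either gene. None of the 3 passed when only the 4 libraries compared were fitted (adjusted p = 0.0643 to 0.0691). Their log2 fold changes there were 0.41 for RPLP2, 0.32 for RPL3 and 0.30 for RPS4X, much as in the main fit. RPS4X also missed the threshold when any single library other than Nut 0h replicate 2 was left out, at log2 fold changes of 0.23 to 0.33. Leaving out single libraries changed the count of upregulated members to 0 for Nut 10h replicate 1 and for either Nut 1h library, to 1 for Nut 0h replicate 2, and to 7 for Nut 10h replicate 2.

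Of 7 small subunit proteins along the mRNA channel, 6 were downregulated after 1 h (median -0.76), beside 32.3% of all tested genes. RPS2, the member with the most counts, had 207590 and 161291 normalized counts in the controls, 72529 and 84860 after 1 h, and 223511 and 186764 after 10 h. RPS28 had a log2 fold change of -1.31 after 1 h, and RPS23 had 0.07 (adjusted p = 0.528) but was called lower with the GC-content offset (-0.34, adjusted p = 0.00148). Of 8 large subunit proteins around the exit tunnel, 6 were downregulated after 1 h, and RPL39 was upregulated while RPL19 did not pass (-0.29, adjusted p = 0.0526). Of all tested genes, 66.9% were called in that comparison, made up of 34.5% upregulated and 32.3% downregulated. RPL26 and RPL39, both in this list, thus had Nut 1h log2 fold changes of -2.02 and 1.41. RPSA, a small subunit protein also known as the laminin receptor precursor, had 59772 and 57383 normalized counts in the controls, 40754 and 43519 after 1 h, and 71214 and 64644 after 10 h, with -0.48 after 1 h (adjusted p = 0.000596) and 0.21 after 10 h (adjusted p = 0.114).

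Mutations in many of these genes cause Diamond-Blackfan anaemia, an inherited failure of red cell production. Of 17 tested members known for this, 11 were downregulated and 3 upregulated after 1 h (median -0.45), and 0 were called in either direction after 10 h. The shares over all tested genes were 32.3% downregulated and 34.5% upregulated after 1 h, and 29.0% called after 10 h. At an unadjusted p under 0.05, 1 was higher and 0 lower there, and DESeq2 called 0 in either direction. RPS19, the gene most often mutated in this disease, had a log2 fold change of -0.93 after 1 h (adjusted p = 6.22e-06) and 0.19 after 10 h (adjusted p = 0.211).

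A few members could hardly be measured. RPL10L, RPL3L and RPL39L are copies used mainly in testis or muscle. RPL10L had 0 counts in each library, which allows up to 3 counts a library. RPL39L had 0 counts in all Nut 0h and Nut 1h libraries and 2 and 8 in those of Nut 10h, and was not tested. RPL3L had 4 to 14 counts, and its log2 fold change of -0.58 after 10 h was not called (adjusted p = 0.481). RPS10 and RPL17 share exons with readthrough rows, RPS10-NUDT3 and RPL17-C18orf32, which had 7 counts or fewer. RPS10, which had 181 and 163 counts in the controls, was upregulated after 1 h (log2 fold change 0.70, adjusted p = 0.000493) and had 0.31 after 10 h (adjusted p = 0.113), from what may be a small part of its reads. In all, 45 members share exon bases with another annotated gene, 25 of them with a small nucleolar RNA on the same strand.

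Outside the symbol rule, FAU, whose product is a ubiquitin-like protein fused to a small subunit protein, had 15215 and 12711 normalized counts in the controls, 5137 and 5729 after 1 h, and 15635 and 11924 after 10 h. It was 2.57-fold lower after 1 h (adjusted p = 1.04e-06).

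Expressed copies of members were compared with their partners after 1 h. RPL22L1, the copy of RPL22, was upregulated (1.19, adjusted p = 1.90e-07), as was RPL22 (0.79, adjusted p = 3.88e-06), and both were still called with the GC-content offset (0.52 and 0.24). For the other pairs the offset changed a call. RPL7L1 (0.51) and RPL7 (0.61) were both upregulated, but with the offset RPL7 had -0.03 (adjusted p = 0.781) and RPL7L1 had 0.19 (adjusted p = 0.0187). RPL36AL had 0.25 (adjusted p = 0.0349) and RPL36A had 1.53, whereas RPL36AL was called lower with the offset (-0.32, adjusted p = 0.00623) and was not called by DESeq2 (adjusted p = 0.0799) or with the coding-sequence offset (-0.11, adjusted p = 0.251). RPL26L1 had 0.02 (adjusted p = 0.863) while RPL26 had -2.02, and with the offset both were called lower, RPL26L1 at -0.31 (adjusted p = 0.0308). The coding-sequence offset gave RPL26L1 -0.22 and RPL7L1 0.14 and called neither (adjusted p = 0.0978 and 0.0838). None of these copies was called after 10 h (adjusted p = 0.227 to 0.932 in edgeR), where 29.0% of all tested genes were called. At an unadjusted p under 0.05, 0 of the copies passed.

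Other groups were counted in the same way. Of 14 tested mRNAs known to carry a TOP tract but to encode translation factors and similar proteins, 8 were upregulated (57.1%, against 34.5% of all tested genes) and 5 downregulated (35.7%, against 32.3%) after 1 h (median 0.27). EEF1A1, the elongation factor that brings tRNA, had 0.27 (adjusted p = 0.0257), whereas EEF2, which moves the ribosome along, had -0.80 (adjusted p = 3.71e-05). These calls depended on the offset. With the GC-content offset EIF4B (0.23), EEF1D (0.39) and HNRNPA1 (0.38) were called higher. PABPC1 (-0.58), EIF3E (-0.20), EIF3H (-0.51), EIF3F (-1.48), GNB2L1 (-0.64) and EEF1A1 (-0.25, adjusted p = 0.0290) were called lower. The other tested mRNAs of this list were not called, and EEF2 had 0.0078 (adjusted p = 0.944). Neither EEF1A1 nor EEF2 was called with the coding-sequence offset (-0.05 and -0.08, adjusted p = 0.665 and 0.415). Of 73 tested mitochondrial ribosomal proteins, 30 were upregulated and 30 downregulated after 1 h (41.1% each way, median -0.06). After 10 h 0 were upregulated and 16 downregulated (21.9%), where 14.1% and 14.9% of all tested genes were called (median -0.13). At an unadjusted p under 0.05, 1 of these was higher after 10 h, and DESeq2 called 0 higher.

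Rows of ribosomal protein pseudogenes are mostly intronless copies elsewhere in the genome. They held 1.22% to 1.65% as many counts as the members, and 94 of 845 such rows could be tested. After 10 h, 35 were upregulated and 1 downregulated (median 0.68), where 14.1% and 14.9% of all tested genes were called. DESeq2 called 24 of these rows higher and 0 lower. A row could pass the low-count filter through the libraries of 1 condition alone. RPLP0P6 had 500 and 590 counts in the controls and 1081 and 1117 after 10 h, and RPL13AP5 had 870 and 796 against 1649 and 1439. Their log2 fold changes were 1.01 (adjusted p = 9.18e-06) and 0.89 (adjusted p = 3.92e-05), whereas RPLP0 had 0.14 and RPL13A had 0.24 and neither was called. How reads that fit both a gene and its copies were counted is not given in the sources used here, so these rows cannot be told apart from reads of the members with certainty.

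The Nut 1h values of the members were related to the GC content of their transcripts, as were those of all genes. Across the 77 members, Spearman's rho between GC content and log2 fold change after 1 h was -0.669, and across the 16137 tested genes with a GC content it was -0.772. After 10 h these were -0.188 and -0.0733. Genes of 1 library share its depth and composition and are not independent points, so these are descriptions. Whether the relation after 1 h came from the treatment or from the 2 Nut 1h libraries themselves was not tested. RPL36A, RPL39, RPL21 and RPS27A have a GC content of 41.1% to 43.1%, and RPL28, RPL18 and RPS15 of 55.1% to 61.3%. RPL26 stood apart, with the largest decrease at a GC content of 44.7%.

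A larger share of the members than of all tested genes was downregulated after 1 h in each range of GC content. The share called also depends on precision, and the median SE was 0.101 for the members and 0.126 for all tested genes. The ranges were not matched for counts. Below 45%, 6 of 22 members were downregulated (27.3%) and 10 upregulated, against 2.03% and 74.5% of all tested genes. From 45% to 50%, 13 of 25 were downregulated (52.0%, against 12.5%), and from 50% to 55%, 11 of 16 (68.8%, against 36.3%). At 55% and above, 13 of 14 were downregulated (92.9%, against 74.7%), where the median log2 fold change was -0.93 for the members and -0.86 for all genes. The lowest range depended on which GC content was used, since by that of the coding sequence, tried after seeing the data, 1 of 10 members below 45% was downregulated and 9 were upregulated, against 0.893% and 84.7% of all tested genes. By the same measure 8 of 23 members were downregulated from 45% to 50% (34.8%, against 5.84%), 16 of 25 from 50% to 55% (64.0%, against 513 of 2048 genes), and 18 of 19 at 55% and above (94.7%, against 71.9%).

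With an offset that removes the smooth GC-content trend of every library, 47 members were downregulated and 8 upregulated after 1 h, and the median was -0.34 as before. The shares over all tested genes given above, 32.3% downregulated and 34.5% upregulated, come from the fit without the offset. The counts under the offset thus have no matching share to be read against. Of the 43 members downregulated without the offset, 37 remained so, as did 6 of the 13 upregulated members, namely RPL36A, RPL39, RPL21, RPS27A, RPL22 and RPS10. RPL26 had -2.39 under the offset and RPL28 had -1.20, whereas RPS15 had -0.44 and RPL18 had -0.65. RPL39 had 0.94 (adjusted p = 6.64e-08) and RPL36A had 0.93 (adjusted p = 0.000145). The calls of RPLP2 and RPL3 after 1 h were lost, with 0.14 and 0.02. Both also missed the threshold when the first replicate of Nut 0h or of Nut 1h was left out. Without that of Nut 0h the values were -0.23 for RPLP2 and -0.27 for RPL3. Without that of Nut 1h they were -0.40 and -0.28, against -0.47 and -0.33 in the main fit. RPL8 changed from a downregulated to an upregulated call (-0.48 and 0.65) and RPL9 from up to down (0.31 and -0.22), both named after their values were seen.

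**Figure D4:**
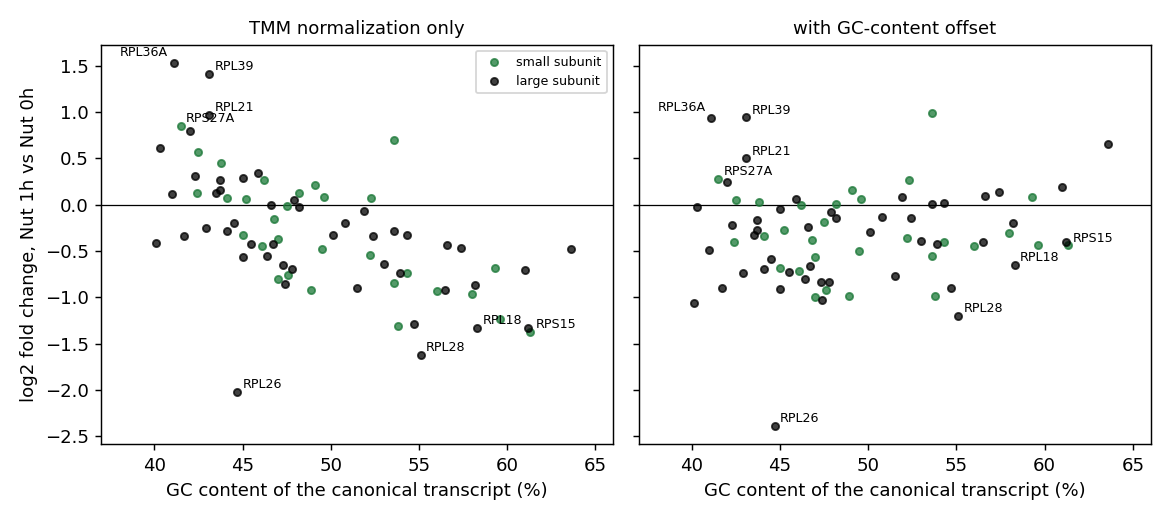
Log2 fold change after 1 h against Nut 0h of the 77 tested ribosomal protein genes by the GC content of the canonical transcript (%), with TMM normalization only (left) and with a GC-content offset (right). Points are genes, green for the small and black for the large subunit. Spearman's rho is -0.669 on the left and 0.0418 on the right, and RPL26 lies lowest in both, at -2.02 and -2.39.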

How the data were processed

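RNA was sequenced from 2 biological replicates of HCT116 cells for each condition (Nut 0h, Nut 1h, Nut 10h). Per the submitters' processing notes, the authors trimmed reads with Trim Galore 0.6.6, aligned them to GRCh37.p13 with STAR 2.7.0f and counted them with featureCounts (Subread 2.0.0), and the deposited values are raw counts per gene. Whether counting used strand, and how multi-mapping or overlapping reads were treated, is not given in the sources used here. A second deposited table gave the gene symbols, and its fold changes and p-values from the authors' comparisons were not used.

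Of 57905 genes, 16565 passed edgeR's filterByExpr. Counts were normalized by TMM and tested with edgeR 4.0.16 (quasi-likelihood, all 6 libraries, condition as the only term, 3 residual degrees of freedom, Benjamini-Hochberg over all tested genes), after the scripts were tested on simulated data. A normalized count is scaled to a common library size. Replicates of a condition differed by more than counting noise (chi-square per degree of freedom 5.13 to 16.7), so each was counted as 1 sample. The p-values measure the spread between these samples only. Levels were not compared between genes per length, because annotated transcripts of some members carry very long 3′ ends.

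GC content was taken from canonical transcripts of GENCODE v44 lifted to GRCh37, which gave a value for 97.4% of tested genes and for all 77 tested members. The GC-content and length offsets were loess trends (span 0.4) of each library's deviation. Alternatives were other size factors, other filters (at least 1 count in all, or 1 CPM in every library), DESeq2 1.42.0, fewer libraries, these offsets and a replicate block.

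Members, lists and named genes were chosen with earlier results of these data known. Named were RPS27L, RPS27, RPL5, RPL11, RPL23, RPL26, RPLP0, RPLP1, RPLP2, RPSA, RPS26, RPL3L, RPL10L, RPL39L, FAU, MDM2, CDKN1A, and the members with the 4 highest and 4 lowest log2 fold changes after 1 h and after 10 h. After 10 h these were RPLP2, RPL3, RPS10 and RPS4X, and RPL3L, RPS15, RPS26 and RPL26. A few further results are not reported here.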

Additional observations from a re-analysis of the deposited data

Results flagged for a closer look

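The log2 fold changes after 1 h and after 10 h, both against Nut 0h, differed in 56 of the 77 tested ribosomal protein genes (72.7%). This is by the direct test of Nut 10h against Nut 1h (edgeR, adjusted p of at most 0.05). Of all tested genes, 67.9% differed in this way, which is close to the share of the members. The Nut 10h value exceeded the Nut 1h value on the log2 scale by 1.87 for RPL26, 1.61 for RPL28, 1.24 for RPL18, and 1.13 for RPS15 and RPS27. It exceeded it by 0.93 for RPLP1, 0.87 for RPLP2, 0.78 for RPLP0, 0.69 for RPSA, 0.65 for RPL3, 0.64 for RPS26 and 0.46 for RPS4X. The difference had the other sign in RPL36A (-1.39), RPL39 (-1.37), RPL21 (-0.88), RPS27A (-0.76) and RPS10 (-0.39). The RPS10 difference missed the threshold when any single Nut 1h or Nut 10h library was left out, at values of -0.41 to -0.33. It also missed it in DESeq2, at -0.37 (adjusted p = 0.0902). The RPS4X difference was 0.22 with the length offset and missed the threshold (adjusted p = 0.0531). Differences fitted under the GC-content offset were 0.59 for RPL18, 0.25 for RPS15, 0.30 for RPLP2 and 0.31 for RPL3, and -0.82 for RPL36A, -0.91 for RPL39, -0.43 for RPL21, -0.20 for RPS27A and -0.67 for RPS10, each still called. RPS27L, set apart from the members, had a Nut 10h value that was larger by 1.43. Groups of 2 libraries were too small to look for single libraries far from the others.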

How the results depend on the processing

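The median log2 fold change of the members kept its sign under every alternative run, from -0.41 to -0.23 after 1 h, 0.02 to 0.17 after 10 h, and 0.33 to 0.54 for Nut 10h against Nut 1h. The count of downregulated members after 1 h ran from 35 to 51. The length offset moved the medians of both contrasts with Nut 1h, to -0.23 and 0.33, and the GC-content offset moved that of Nut 10h against Nut 1h to 0.35, as it did with the block. Upregulated members after 1 h numbered 8 with the GC-content offset, 8 with that offset and the replicate block, and 7 with an offset on coding-sequence GC content, which was chosen after seeing the data and which gave 6 members lower after 10 h than after 1 h.
The 3 upregulated members after 10 h were the least stable count. It was 9 by library size alone, 5 with at least 1 CPM in all libraries, 0 with only the 4 libraries compared, 9 with the GC-content offset, 7 with that offset and the block, and 12 with the coding-sequence offset. Downregulated members after 10 h numbered 1 without a low-count filter. Leaving out 1 library at a time gave 0 to 7 upregulated and 0 to 1 downregulated members after 10 h, the 1 (RPS15) without Nut 10h replicate 1. After 1 h these fits gave 9 to 14 upregulated and 35 to 44 downregulated members. A condition left with 1 library is assumed to vary like the others.
The mean share of the members was 7.04% in the controls, 5.56% after 1 h and 7.78% after 10 h when only nuclear counts were used.
Among results called in the main fit, the alternative or both, single genes changed sign as follows, and the cause was not tested. After 1 h, the GC-content offset gave -0.10 for RPS27L, -0.05 for RPL5, -0.17 for RPL23, 0.14 for RPLP2 and 0.02 for RPL3, and with the replicate block -0.10, -0.05, -0.16, 0.15 and 0.02. The coding-sequence offset gave -0.22 for RPS27L and -0.27 for RPL5, both called. For Nut 10h against Nut 1h, RPL23 had 0.30 with the GC-content offset and 0.29 with the block added, and RPL5 had 0.34 with the coding-sequence offset.
Replicate numbers did not pair the samples in a consistent way. Across tested genes, the deviations of same-numbered libraries correlated at 0.443 between Nut 0h and Nut 10h. With Nut 1h they correlated at -0.299 for Nut 0h and -0.271 for Nut 10h. Libraries of different conditions may thus share variation, which the main fit, with condition as its only term, does not model. With the replicate block, 14 members were upregulated and 42 downregulated after 1 h, and 3 and 0 after 10 h. A block with the numbers of the Nut 1h libraries crossed, chosen after seeing the data, gave 27 upregulated and 3 downregulated members after 10 h. In all, 1400 of the results for single genes under an alternative stayed on the same side of the threshold, 37 fell below it and 27 passed it. A further 15 changed sign and were called in the main fit, the alternative or both. Changes of sign between fits without a call are among the 1400.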
